A study of Sus scrofa with 12 samples.

Results

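The genes described here are KDR, PLVAP, TM4SF18, APLN, DLL4 and HIF1A, which belong to endothelial cells, to blood vessel growth and to the response to low oxygen. They are 6 of the 516 genes in the only table analysed, which holds genes of pig heart after pressure overload of the left ventricle. All 516 were selected by the authors' own comparison of these libraries, each with an unadjusted p under 0.05. The 6 were then chosen by name from that table with earlier results of these data known. Every difference between the groups given below is therefore a description of the values that listed the genes, and no test of it is independent.

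The libraries are messenger RNA of pig heart, 6 from animals with left ventricular pressure overload (LVPO) and 6 from referent controls. Pressure overload was made by filling a cuff around the ascending aorta in steps, and tissue was studied after 5 weeks. The series text counts 9 pigs with overload and 6 controls of the same age and weight; neither breed, sex nor the region of the heart is stated, and the labels do not say that each library is a separate animal. The text on cuff placement stands in the labels of all 12 samples, controls included, so groups were taken from the group label. The series title speaks of heart failure with preserved ejection fraction. None of 12 cardiomyocyte markers is in the table, so the tissue label could not be checked against its defining genes.

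In textbook biology, hypoxia-inducible factor 1 is a transcription factor whose alpha subunit, the product of HIF1A, is degraded when oxygen is plentiful. Its regulation is mostly at the protein level, so the amount of its messenger RNA does not report its activity. When stable, it switches on angiogenic signals such as vascular endothelial growth factor (VEGF), which acts on endothelial cells through the receptor VEGFR2, the product of KDR. In the sprouting mouse retina, endothelial tip cells that lead a new vessel carry much VEGFR2, DLL4 and APLN, and DLL4 on the tip cell restrains its neighbours through Notch receptors. Cardiac muscle is densely supplied with capillaries, whose endothelium is a source of apelin, the peptide made from APLN.

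Effective library sizes, recovered from the steps between CPM values (reads of a gene relative to the size of the library), ranged from 19.5 to 31.9 M reads. The recovered numbers of reads of the 6 genes were nearly all even, such as 40 for TM4SF18 in control replicate 6. Independent fragments may therefore be fewer than the reads given, which was not tested. Library sizes below the range searched were not tried. Each library's log2 values correlated with the mean of the rest of its group at an r between 0.935 and 0.983 over the 516 genes. Control replicate 5 stood apart from its group by Dixon's outlier test for 49 genes, LVPO replicate 3 for 32, LVPO replicate 4 for 23 and control replicate 6 for 18, and each of the other libraries for at most 3. Replicates 1 to 3 of both groups are described S01 to S06 in the labels and replicates 4 to 6 are S10 to S15; what separates the runs of numbers is not stated, and the log2 difference of each of the 6 genes is given for both.

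Of the 6 genes, 5 were higher and 1, DLL4, was lower in pressure overload. Listing at an unadjusted p under 0.05 took 3.39% of the 15235 genes the authors tested, 0.926% as higher and 2.46% as lower. Only TM4SF18 had an adjusted p under 0.05 in the authors' deposited table, which holds 6 such genes, or 0.0394% of those tested. All limma log2 differences below are given on the log2(CPM + 1) scale. After Benjamini-Hochberg adjustment over 15235 genes, limma called 0 of the 6, as it called 0% of the 512 table genes fitted. Its smallest adjusted p among the 6 was 0.655. The other tested genes were not fitted and were counted as having a larger p, which was not checked. At an unadjusted p under 0.05 limma gave 4 of the 6, next to 89.1% of the 512 table genes fitted, so this count says nothing particular about the 6. For 1 of the 6, TM4SF18, the ranges of the groups did not overlap, next to 9.69% of the genes in the table.

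KDR encodes VEGFR2, the main signalling receptor for VEGF on endothelial cells. It was at 62.1 CPM in the lowest control library, 101 CPM in the median and 147 CPM in the highest, and in pressure overload at 112, 145 and 191 CPM. All 6 overload libraries lay above the control median, and 3 of them lay above the highest control, which was control replicate 2. The controls had a mean of 101 ± 27.5 CPM and the overload libraries of 149.7 ± 35.5 CPM (SD, n = 6 for each), a ratio of 1.48, with a limma log2 difference of 0.57 ± 0.19 (SE), or 0.90 after median-of-ratios rescaling. The 3 overload libraries above all controls were replicates 1 to 3, at 162 to 191 CPM, while replicates 4 to 6 were at 112 to 128 CPM. Control libraries were at 89.9 to 147 CPM in replicates 1 to 3 and at 62.1 to 104 CPM in replicates 4 to 6. The log2 difference was 0.69 within replicates 1 to 3 and 0.46 within replicates 4 to 6.

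PLVAP forms the diaphragms that span the fenestrae and caveolae of endothelial cells. It was at 81.7, 94.8 and 126 CPM in the lowest, median and highest control library, and at 93.1, 131 and 175 CPM in pressure overload. Of the overload libraries 4 were above the highest control, replicate 5, and LVPO replicate 5 was below the control median. The controls had a mean of 98.5 ± 16.3 CPM and the overload libraries of 132 ± 26.4 CPM (SD, n = 6 for each), with a limma log2 difference of 0.41 ± 0.14 (SE), or 0.73 after median-of-ratios rescaling. That difference was 0.58 within replicates 1 to 3 and 0.24 ± 0.21 (SE) within replicates 4 to 6, where it was close to its own error. In a bulk sample more endothelial cells and more RNA of these genes per cell cannot be told apart. The other 23 genes of a list of 25 endothelial markers, PECAM1, CDH5 and VWF among them, are not in the table, and their values were not analysed here.

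TM4SF18 encodes a small membrane protein of the transmembrane 4 L6 family, and it had the largest ratio of the 6. Control libraries were at 1.59, 8.29 and 9.40 CPM in the lowest, median and highest, and overload libraries at 13.4, 14.7 and 22.2 CPM. No control reached the lowest overload library. Control replicate 6 stood far below the other controls, with 40 reads of this gene, and the next control was at 6.57 CPM. In the overload group 5 libraries lay between 13.4 and 14.9 CPM, and LVPO replicate 4 was alone at 22.2 CPM. The limma log2 difference was 1.13 ± 0.29 (SE), 0.83 without control replicate 6, and 0.73 without control replicate 6 and LVPO replicate 4. Replicates 1 to 3 gave 0.81 and replicates 4 to 6 gave 1.46. The authors' deposited table gives this gene a log2 fold change of 1.10 and an unadjusted p of 1.21e-05, the fifth smallest of the table.

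APLN encodes the precursor of apelin, a secreted peptide that dilates vessels and raises cardiac contractility through the receptor APLNR. Its control libraries were at 3.88, 22.4 and 34.4 CPM in the lowest, median and highest, and its overload libraries at 16.8, 35.6 and 55.8 CPM. The groups overlapped widely: 3 overload libraries were above the highest control, and 2, LVPO replicates 1 and 4, were below the control median. The controls had a mean of 20.1 ± 11.4 CPM and the overload libraries of 35.1 ± 15.9 CPM (SD, n = 6 for each). Its coefficient of variation of 56.6% in controls and 45.3% in pressure overload was the highest of the 6 genes, where the median gene of the table had 21.0% and 21.4%. The limma log2 difference of 0.91 ± 0.43 (SE) was 0.54 ± 0.33 without control replicate 6, the library in which APLN was lowest. It was 0.77 ± 0.43 (SE) within replicates 1 to 3 and 1.05 ± 0.67 within replicates 4 to 6.

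DLL4 is the endothelial ligand of Notch receptors that VEGF induces, and it was the gene of the 6 with a lower mean in pressure overload. Control libraries were at 14.3, 23.8 and 31.6 CPM in the lowest, median and highest, and overload libraries at 13.1, 18.4 and 21.5 CPM. All 6 overload libraries were below the control median, but only LVPO replicate 5 was below the lowest control, replicate 6. The controls had a mean of 23.8 ± 6.37 CPM and the overload libraries of 18.1 ± 3.14 CPM (SD, n = 6 for each), with a limma log2 difference of -0.35 ± 0.19 (SE). The difference was -0.58 within replicates 1 to 3 and -0.12 ± 0.27 (SE) within replicates 4 to 6, where controls were at 14.3 to 23.6 CPM and overload libraries at 13.1 to 21.5 CPM. DLL4 has the largest unadjusted p of the authors' deposited table, 0.04997, so it is the gene just inside the limit for listing; genes just outside were not analysed here. Rescaling the libraries by median of ratios took its difference to -0.04.

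HIF1A was at 57.5, 84.5 and 93.8 CPM in the lowest, median and highest control library and at 90.6, 97.5 and 126 CPM in pressure overload. All 6 overload libraries were above the control median and 5 were above the highest control. The controls had a mean of 82.0 ± 13 CPM and the overload libraries of 102 ± 12.6 CPM (SD, n = 6 for each), a ratio of 1.24, with a limma log2 difference of 0.32 ± 0.13 (SE) that was 0.64 after median-of-ratios rescaling. A single library in each group lay apart. Control replicate 5 was at 57.5 CPM with the next control at 80.8 CPM, and LVPO replicate 4 was at 126 CPM with the next at 103 CPM. Within replicates 1 to 3 the controls were at 82.1 to 93.8 CPM, the overload libraries at 90.6 to 95.8 CPM, and the log2 difference was 0.08 ± 0.11 (SE). Within replicates 4 to 6 it was 0.55 ± 0.20. The change of the difference between the runs was not tested, for this gene or for the others.

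**Figure D1:**
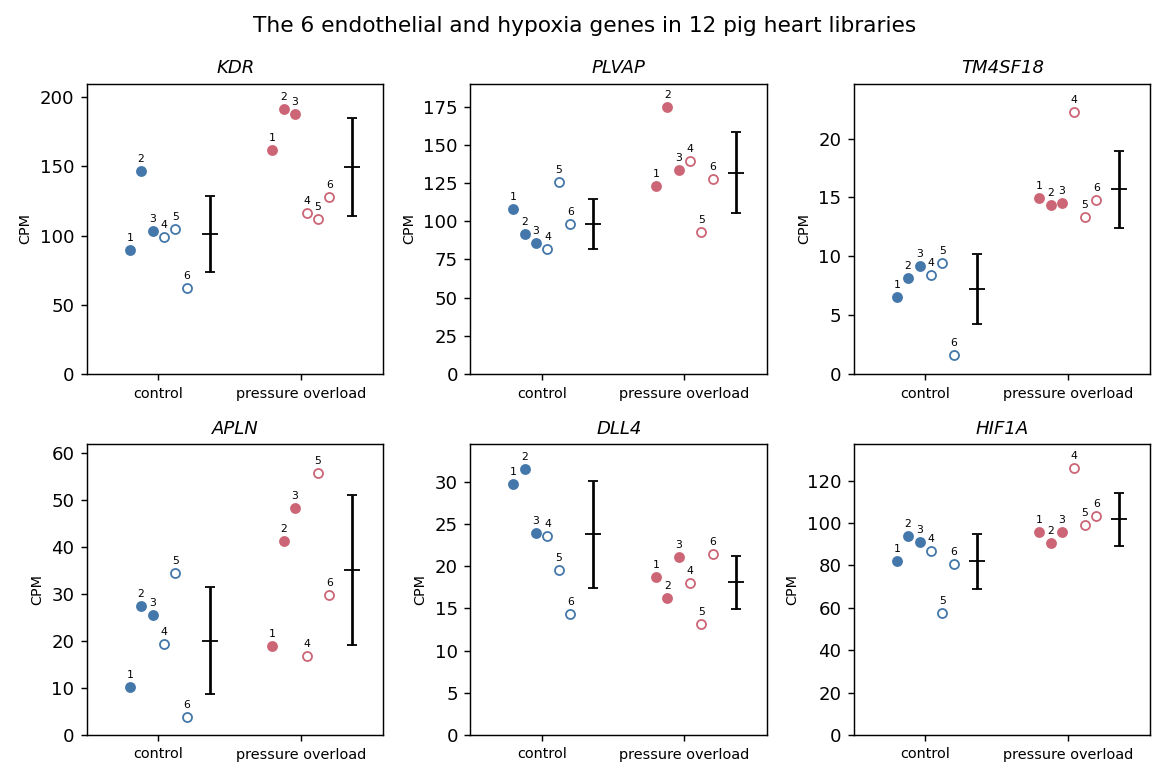
CPM of the 6 genes in each library, with filled points for replicates 1 to 3 (S01 to S06) and open points for replicates 4 to 6 (S10 to S15), replicate numbers above the points, and the mean ± SD of 6 libraries beside each group. TM4SF18 is the gene whose groups do not overlap, control replicate 6 is lowest for KDR, TM4SF18, APLN and DLL4, and KDR in pressure overload falls into 162 to 191 CPM and 112 to 128 CPM.

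**Figure D2:**
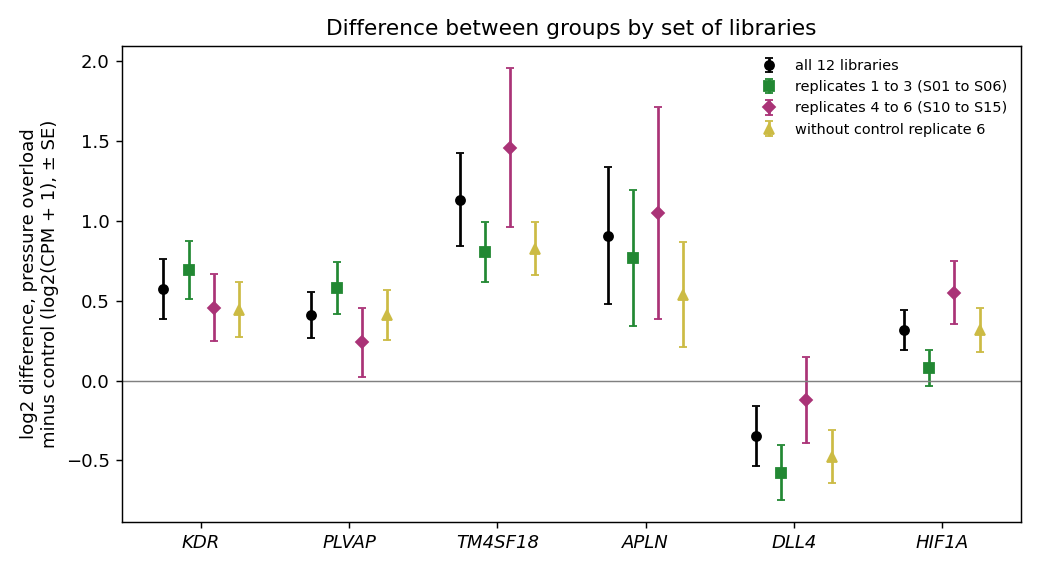
Log2 difference between pressure overload and control on the log2(CPM + 1) scale with its limma SE, for all 12 libraries, for each run of 6 libraries and without control replicate 6. KDR, PLVAP and DLL4 are farther from 0 in replicates 1 to 3, TM4SF18, APLN and HIF1A in replicates 4 to 6, and no gene changes sign.

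The genes lie on 5 chromosomes of Sscrofa11.1 in the NCBI RefSeq annotation: KDR on chromosome 8 from 41809116 to 41856379, PLVAP on 2 from 60324565 to 60344450, TM4SF18 on 13 from 89527835 to 89549515 and APLN on X from 106236746 to 106246563. DLL4 and HIF1A are on chromosome 1, DLL4 from 130376720 to 130386411 and HIF1A from 190625436 to 190673926. HIF1A overlaps an annotated pseudogene, LOC106507611, and whether reads were counted by strand is not stated, so its value is less certain; the other 5 overlap no annotated gene. Mean reads per library were 184 in controls and 425 in pressure overload for TM4SF18, 519 and 988 for APLN, and 598 and 489 for DLL4. They were 2578 and 4079 for KDR, 2493 and 3569 for PLVAP, and 2063 and 2767 for HIF1A.

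Ratios between genes within a library do not depend on how libraries were scaled. Between a gene listed as higher and DLL4, listed as lower, a difference of the ratio follows from how the genes were listed. The ratio of KDR to DLL4 in CPM was 3.03, 4.33 and 5.35 in the lowest, median and highest control and 5.97, 8.60 and 11.8 in pressure overload, so the groups did not overlap. The ratio of TM4SF18 to DLL4 was 0.110 to 0.482 in controls and 0.687 to 1.23 in pressure overload, again without overlap. The PLVAP to DLL4 ratio overlapped, at 2.90 to 6.83 in controls and 5.96 to 10.8 in pressure overload. So did APLN to DLL4, at 0.271 to 1.76 and 0.931 to 4.25, and DLL4 to HIF1A, at 0.178 to 0.362 and 0.132 to 0.221. In all, 2 of the 15 pairs of the 6 genes had ratios without overlap, next to 10.6% of the pairs of all table genes above 0 CPM in every library, so the count says nothing particular about the 6. The other pairs overlapped, among them KDR to HIF1A, at 0.768 to 1.82 in controls and 0.926 to 2.11 in pressure overload. CPM values are not per length, so only the change of a ratio between libraries can be read, not its size.

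The other genes of these pathways were looked up in 7 lists: endothelial markers, tip cells and sprouting, VEGF and angiopoietins, Notch, apelin, regulators of hypoxia-inducible factors, and their targets. Without the 6 genes these lists name 128 genes, of which 6 are in the table, 2 higher and 4 lower, or 4.69% next to 3.39% of all tested genes. None of the 6 had an adjusted p under 0.05 in the authors' deposited table. In the VEGF and angiopoietin list, none of the 15 genes other than KDR is in the table, VEGFA, FLT1, ANGPT2 and TEK among them. APLNR, the receptor of apelin, is not in it either. A gene outside a table limited by that p may still have differed.

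Of 27 Notch genes other than DLL4, RBPJ was listed, the DNA-binding protein through which Notch receptors act. It was at 45.8, 49.9 and 62.0 CPM in the lowest, median and highest control and at 31.0, 41.3 and 48.4 CPM in pressure overload, where 5 of 6 libraries were below the lowest control. Its limma log2 difference was -0.36 ± 0.13 (SE) on the deposited scaling, and -0.04 after median-of-ratios rescaling. The ratio of DLL4 to RBPJ had a mean of 0.454 ± 0.106 in the controls and 0.456 ± 0.121 after overload (SD, n = 6 for each). The 2 means of the ratio differed by less than either SD, while the size of each gene's own difference depended on the scaling of the libraries. RBPJ overlaps a long non-coding RNA in the annotation, which makes its value less certain.

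Of 16 regulators of hypoxia-inducible factors other than HIF1A, 2 were listed, both lower in mean. HIF3A encodes a related alpha subunit, of which a short form blocks hypoxia-inducible factor 1 in mouse. It was at 15.2, 23.9 and 58.5 CPM in the lowest, median and highest control and at 9.78, 13.1 and 17.6 CPM in pressure overload. The groups overlapped, and control replicate 6 was far above the other controls, of which the highest was at 28.0 CPM. Its limma log2 difference was -0.94 ± 0.26 (SE), the opposite direction to HIF1A. Replicates 1 to 3 gave -0.50 and replicates 4 to 6 gave -1.38. The ratio of HIF1A to HIF3A was 1.38, 3.10 and 6.15 in the lowest, median and highest control and 5.64, 7.12 and 12.8 in pressure overload, an overlap of control replicate 2 with LVPO replicates 3 and 5. HIF3A overlaps another protein-coding gene in the annotation. CREBBP, an acetyltransferase that serves as co-activator of hypoxia-inducible factors, had a mean of 58.4 ± 3.48 CPM in the controls and 47.7 ± 10.3 CPM after overload (SD, n = 6 for each). Its log2 difference was -0.03 within replicates 1 to 3 and -0.59 within replicates 4 to 6, and it turned to 0.00915 after median-of-ratios rescaling.

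Of 36 genes that hypoxia-inducible factors are known to switch on, 2 were listed, and they lay in opposite directions. P4HA1, a collagen prolyl hydroxylase, had a limma log2 difference of 0.37 ± 0.15 (SE), or 0.69 after median-of-ratios rescaling, with 3 of 6 overload libraries above the highest control; it overlaps NUDT13 in the annotation. PFKFB4, an enzyme that sets the level of a glycolysis activator, was at 10.5, 18.3 and 24.7 CPM in the lowest, median and highest control and at 5.89, 11.5 and 17 CPM in pressure overload. Its log2 difference was -0.68 ± 0.23 (SE), with all 6 overload libraries below the control median. It was -0.31 within replicates 1 to 3, -1.06 within replicates 4 to 6 and -0.38 after median-of-ratios rescaling. SLC2A1, PDK1, LDHA, ADM and VEGFA, which are common readouts of hypoxia, are among those not in the table.

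Among tip cell genes UNC5B, an endothelial netrin receptor, was listed beside 4 of the 6 genes described here. It was at 6.58, 11.5 and 32.8 CPM in the lowest, median and highest control and at 15.6, 23.1 and 35.5 CPM in pressure overload, with all 6 overload libraries above the control median and 1 above the highest control. UNC5B and EFNB2, the ephrin ligand of arterial endothelium, were the 2 genes listed of 81 in 9 lists that mark cell types or proliferation, or 2.47% next to 3.39% of all tested genes. EFNB2 had a mean of 18.9 ± 4.69 CPM in the controls and 26.5 ± 9.53 CPM after overload (SD, n = 6 for each), with a log2 difference of 0.62 in replicates 1 to 3 and 0.24 in replicates 4 to 6. The lists of venous, lymphatic and endocardial endothelium, pericytes and smooth muscle, fibroblasts, immune cells, cardiomyocytes and proliferation had 0 genes in the table, so the levels of those markers were not available beside the 6 genes.

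**Figure D3:**
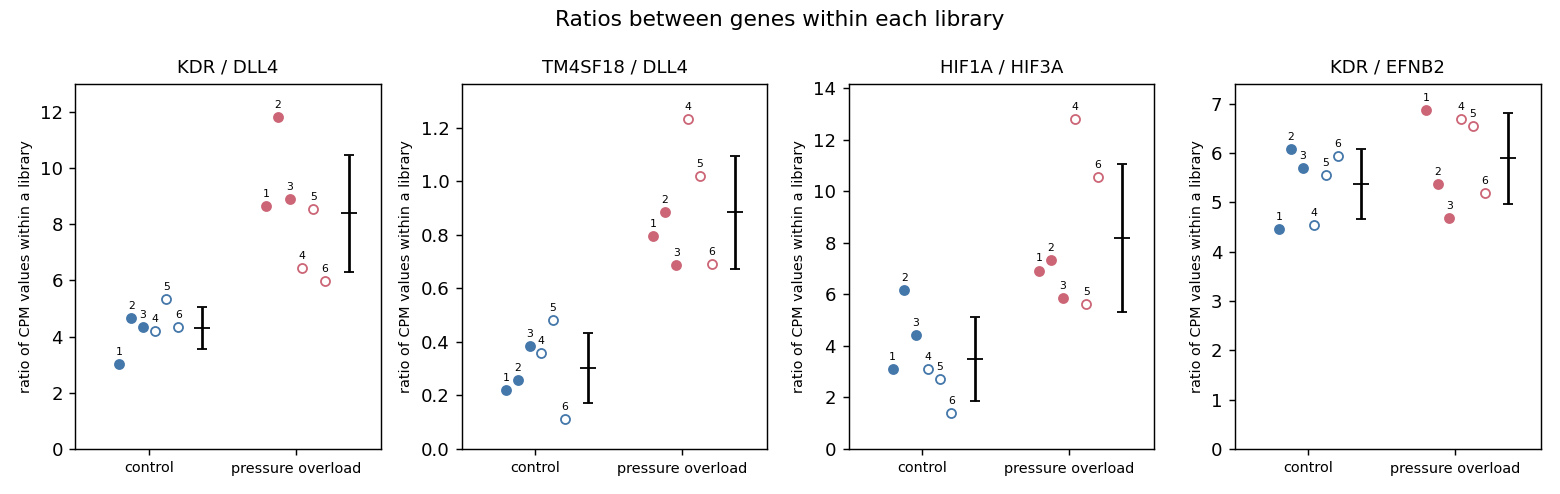
Ratio of CPM values of gene pairs within each library, with filled points for replicates 1 to 3, open points for replicates 4 to 6, and the mean ± SD of 6 libraries. KDR to DLL4 and TM4SF18 to DLL4 do not overlap between groups, HIF1A to HIF3A overlaps through control replicate 2 at 6.15, and KDR to EFNB2 overlaps throughout.

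After each group was centred on its own mean, the mean of the 15 pairwise Pearson correlations over 12 libraries was 0.20, next to a mean of 0.09 over all pairs of table genes. The medians were 0.25 and 0.10. The middle 90% of single pairs of table genes ran from -0.64 to 0.78. The mean for the 6 genes was 0.32 after median-of-ratios rescaling, 0.32 after upper-quartile rescaling and 0.087 by Spearman's rho. An r above 0.5 was reached by 5 of the 15 pairs and by 20.3% of all pairs. The points of each correlation share the library and its scaling, and no p is given because the choice of these genes included their correlation. Without control replicate 6 the mean was -0.00614, so the positive mean rested on that library. Control replicate 6 was lowest of its group for 4 of the 6 genes, next to 15.7% of all table genes. It was at -1.85 for APLN and -1.54 for TM4SF18 on the log2 scale from the mean of the controls, and at -0.65 for each of KDR and DLL4. It was near its group's mean for PLVAP and HIF1A, at 0.01 and -0.00500.

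In the 6 controls APLN correlated with KDR at r = 0.86 (rho = 0.94) and with TM4SF18 at r = 0.93 (rho = 0.83). KDR correlated with TM4SF18 at r = 0.81 (rho = 0.66) and with DLL4 at r = 0.78 (rho = 0.49). Without control replicate 6 these values were 0.57, 0.92, 0.26 and 0.39, so the relation of APLN and TM4SF18 was the one that did not depend on it. DLL4 changed sign without that library, from 0.69 to -0.73 with TM4SF18 and from 0.51 to -0.52 with APLN. Leaving out the 2 libraries farthest from the median of the first gene of each pair gave 0.98 for KDR with APLN, 0.55 for TM4SF18 with APLN, 0.998 for KDR with TM4SF18 and -0.89 for KDR with DLL4. Only 4 libraries are behind each of these, so a single library can turn them. PLVAP and HIF1A were opposed in the controls, at r = -0.86 (rho = -0.71), with -0.93 to -0.62 when any control was left out. Control replicate 5 was highest for PLVAP and lowest for HIF1A.

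In the 6 overload libraries the order was different in value, although the difference from the controls was not tested. TM4SF18 and APLN, positively related in controls, were at r = -0.74 (rho = -0.94), with -0.93 to -0.69 when any overload library was left out. TM4SF18 and HIF1A were at r = 0.91 (rho = 0.54), which was -0.02 without LVPO replicate 4, the library highest for both. KDR and HIF1A were at r = -0.70 (rho = -0.83) and -0.89 to -0.60 when any library was left out. The same pair was at 0.18 in controls, with -0.17 to 0.90 when any control was left out. PLVAP and HIF1A, opposed in controls, were at -0.07, with -0.65 to 0.42 when any overload library was left out. Without the 2 overload libraries farthest from the median of the first gene, r was -0.87 for TM4SF18 with APLN, 0.68 for TM4SF18 with HIF1A and -0.51 for KDR with HIF1A. LVPO replicate 5 was lowest of its group for KDR, PLVAP, TM4SF18 and DLL4 and highest for APLN. Over all table genes it was lowest for 9.88% and highest for 9.11%. The mean over the 15 pairs was -0.00073 in pressure overload and 0.25 in controls, with means over all pairs of table genes of 0.13 and 0.06.

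**Figure D4:**
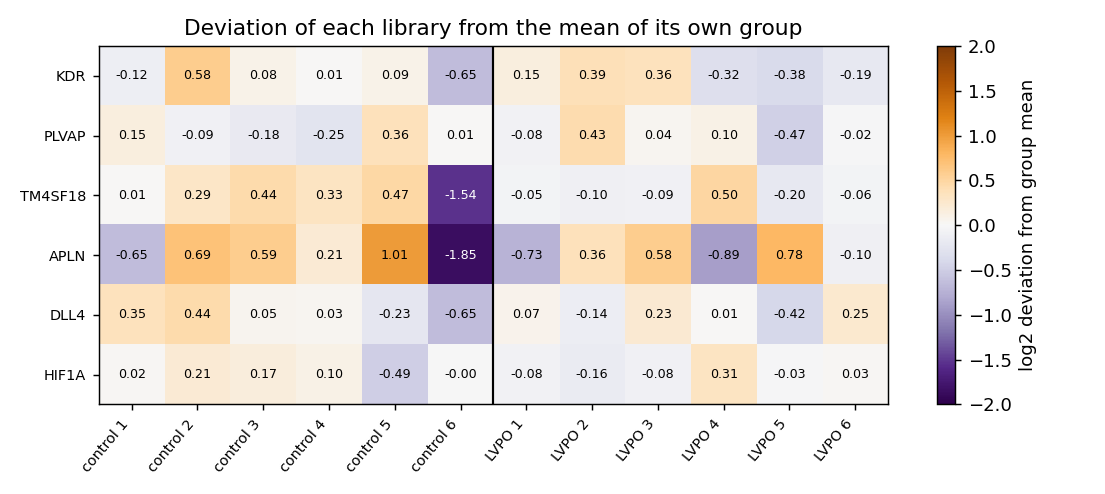
Log2(CPM + 1) of each gene and library minus the mean of its own group, in columns for the 6 control and 6 pressure overload (LVPO) libraries. Control replicate 6 is low for APLN at -1.85, TM4SF18 at -1.54, KDR and DLL4, and LVPO replicate 5 is high for APLN at 0.78 and low for 4 other genes.

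**Figure D5:**
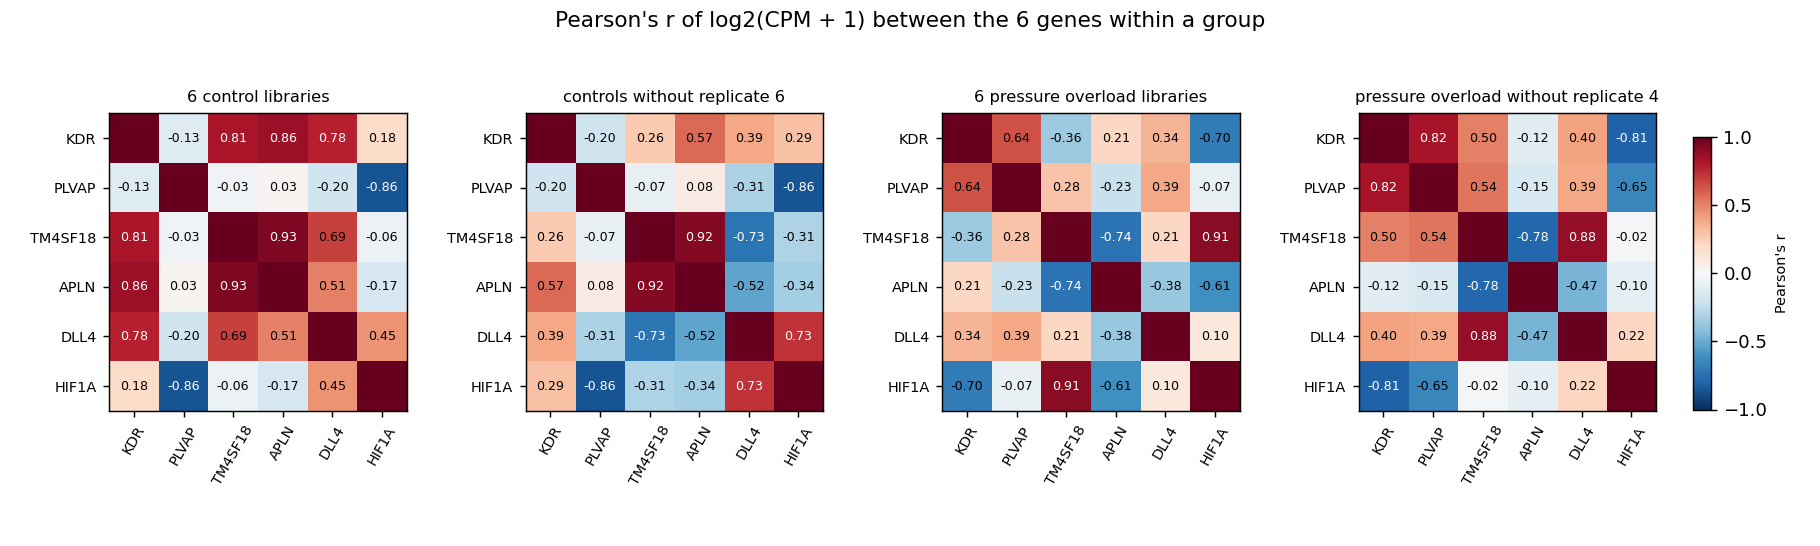
Pearson's r between pairs of the 6 genes within the controls and within pressure overload, each with all 6 libraries and with 1 left out. Among KDR, TM4SF18, APLN and DLL4, r in the controls reaches 0.93. Without control replicate 6, DLL4 goes from 0.69 to -0.73 with TM4SF18 and from 0.51 to -0.52 with APLN. TM4SF18 with HIF1A in pressure overload goes from 0.91 to -0.02 without replicate 4.

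The table genes with the most similar course within the groups to each of the 6 were found by the centred Pearson correlation over 12 libraries. The closest to KDR were SHROOM4, a regulator of the actin cytoskeleton, at r = 0.94 and EFNB2 at r = 0.89. Both held within each group, at 0.93 and 0.96 for SHROOM4 and at 0.89 and 0.93 for EFNB2 in controls and pressure overload. The ratio of KDR to EFNB2 had a mean of 5.37 ± 0.706 in the controls and 5.89 ± 0.925 after overload (SD, n = 6 for each). EFNB2 too was mostly higher in the first run of overload libraries, at 23.6 to 40.2 CPM in replicates 1 to 3 and at 17.1 to 24.7 CPM in replicates 4 to 6.

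The closest to HIF1A were HSPA4, a chaperone of the Hsp110 family, at r = 0.96 and CKAP4, a protein of the endoplasmic reticulum membrane, at r = 0.89. DLL4 was closest to RFLNB, which binds filamin, at r = 0.90 and to SEL1L3 at r = 0.89. TM4SF18 was closest to the adaptor YWHAZ at r = 0.87 and the sulfotransferase CHST1 at r = 0.84, the latter at 0.92 in controls and 0.19 in pressure overload. APLN was closest to DBN1, an actin-binding protein, at r = 0.88 and the sialyltransferase ST8SIA4 at r = 0.80. PLVAP was closest to the embryonic myosin MYH3 at r = 0.80 and IFT172, a protein of ciliary transport, at r = 0.72. MYH3 was low, at a mean of 2.50 CPM in pressure overload. Centring removes the difference between groups, and some of these genes differed the other way. Limma log2 differences were -0.90 for MYH3, -0.32 for IFT172 and -0.51 for CHST1, but 0.67 for RFLNB and 0.86 for SEL1L3. The remaining genes closest to KDR, TM4SF18, APLN and HIF1A differed in the same direction as those genes. The genes closest to all 6 on average were PRCP, a carboxypeptidase that cleaves angiotensin II, at a mean r of 0.54, THSD1 at 0.52, SEL1L3 at 0.52, SHROOM4 at 0.50 and RFLNB at 0.49. SHROOM4 overlaps a long non-coding RNA and PRCP overlaps DDIAS and RAB30 in the annotation. The highest of many candidates is high by selection, so these values rank genes and support nothing further.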

How the data were processed

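The 12 libraries of poly-A RNA from pig heart were made with a directional kit, per the labels' protocols. The submitters' processing notes name Sscrofa11.1 and, in no stated order, STAR 2.7.2b, Trim Galore 0.4.5, Subread 1.5.3 with featureCounts, FastQC and SAMtools 1.5; the annotation and strand setting were not stated. The authors deposited CPM per library and group, a log2 fold change, a likelihood-ratio score and an unadjusted and adjusted p-value, per the file headers, for 516 of 15235 tested genes; the number tested was recovered from the adjusted p of the top gene. Whether libraries were rescaled before CPM was not stated.

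Library sizes were recovered as those at which CPM values up to 5000 reads become whole within 0.02 reads. A mean of 95.8% did, so no count model was fitted. limma 3.58.1 in R 4.3.3 was fitted with an intensity trend to log2(CPM + 1) of the 512 genes with at least 1 CPM in at least 6 libraries. The scale understates the change of low genes, and p-values measure the spread between libraries. Benjamini-Hochberg adjustment counted the unlisted genes as larger p, which was not checked because those genes were not fitted. Both scripts were checked on simulated data. Python 3.11.15 and SciPy 1.17.1 gave the correlations.

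The 6 genes, the 16 gene lists and the tests were chosen with earlier results of these data known. Besides the 6, the rule names every listed member of the lists, the 2 table genes closest to each of the 6 and the 5 closest on average: 26 genes in all. Ratios were added after the data were seen. Alternatives were pseudocounts, the filter, rescaling, adjustment over the table, a replicate block, no trend, each run of libraries and each library left out.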

Additional observations from a re-analysis of the deposited data

Results flagged for a closer look

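Dixon's test on each group of 6 libraries found 5 libraries apart among the 26 combinations of group and gene for the 6 genes and the other listed members of the lists, where chance gives about 1 in 20; over all genes of the table it found 136 of 1032, or 13.2%. TM4SF18 was at 1.59 CPM in control replicate 6, below the other controls, and at 22.2 CPM in LVPO replicate 4, above the other overload libraries. HIF1A was at 57.5 CPM in control replicate 5, below the other controls, and at 126 CPM in LVPO replicate 4, above the others. HIF3A was at 58.5 CPM in control replicate 6, above the other controls. The same libraries stood apart for other table genes, 49 for control replicate 5, 23 for LVPO replicate 4 and 18 for control replicate 6. What sets these libraries apart was not tested.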

How the results depend on the processing

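The direction of all 6 log2 differences was kept under all 23 alternatives. The genes were listed for this same difference, so a kept direction is no support for it. DLL4 lay within its SE of 0 after median-of-ratios rescaling (-0.04 ± 0.21), after upper-quartile rescaling (-0.14 ± 0.20) and within replicates 4 to 6. HIF1A did so within replicates 1 to 3 (0.08 ± 0.11). Adjusted over the table alone, limma called 4 of 6, next to 419 of the 512 table genes fitted, so the count says nothing particular about the 6. This adjustment is circular because listing required a difference. The 4 were KDR at 0.57, PLVAP at 0.41, TM4SF18 at 1.13 and HIF1A at 0.32. Under every other alternative limma called 0 of the 6 and 0 table genes. At an unadjusted p under 0.05 it gave 2 to 5 of the 6, next to 115 to 460 of the 512 to 516 table genes fitted. Median-of-ratios and upper-quartile rescaling, computed on a table in which 375 of 516 genes are lower, raised the median difference of the table by 0.31 and 0.21. After median-of-ratios rescaling 3 of 6 genes did not overlap between groups. The share of table genes without overlap under that rescaling is not given, so this count says nothing particular about the 6. With each library left out in turn the number of the 6 without overlap was 1 to 2, with 2 when control replicate 2 or LVPO replicate 2 was left out. No share over the table is given for these either. Leaving a library out can only keep or raise this number. The mean within-group correlation was -0.00614 to 0.27 with each library left out, lowest without control replicate 6, -0.00073 in pressure overload alone, 0.25 in controls alone, 0.32 after either rescaling and 0.087 by Spearman's rho, next to 0.20 as reported; the cause was not tested. Without control replicate 6 the difference of APLN was 0.54 in place of 0.91, and that of TM4SF18 0.83 in place of 1.13. Limma's genes at an unadjusted p under 0.05 numbered 456, and 195 and 241 after the rescalings, 115 within replicates 1 to 3, 351 within replicates 4 to 6, 286 without control replicate 6 and LVPO replicate 4 (chosen after seeing the data), and 414 with the replicate number as a block. Whether the numbers pair libraries is not known. Deviations of same-numbered libraries correlated at -0.09 to 0.23, and 4 of 12 libraries correlated best with their own number. A run holds 3 libraries a group; PLVAP and DLL4 were at 0.58 ± 0.16 and -0.58 ± 0.17 (SE) in replicates 1 to 3, and at 0.24 ± 0.21 and -0.12 ± 0.27 in replicates 4 to 6.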
